A study of Mus musculus with 6 samples.

Results

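Integrin and laminin subunits were followed in RNA-seq libraries of mouse lung endothelial cells (ECs) that carried or lacked leene. The genes were taken by name from the annotation (every integrin alpha, integrin beta and laminin alpha, beta or gamma chain) and had to reach 10 counts summed over the 6 libraries. All 37 genes with such a name passed, of 47729 genes in the annotation, and the lowest was Itgad with 14 counts. They were read as 8 leukocyte integrins, 18 matrix-binding integrins and 11 laminins, and 36 of the 37 were tested, Itgad being too low.

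The libraries came from male mice (C57BL6 background for the KO line) on normal chow, aged 14 weeks, that received Angiotensin II (AngII) from an osmotic pump at 1000 ng/kg/min for 2 weeks. There were 3 libraries of wild-type (WT) mice and 3 of knockout (KO) mice, which carry a CRISPR-made deletion of the mouse region syntenic to the human LEENE gene. LEENE is a long noncoding RNA that enhances expression of endothelial nitric oxide synthase. Both groups were infused, so no library shows lungs without AngII. The sample labels describe cells enriched by CD31 and pooled from 3 mice in each group, whereas the study's methods name sorting by CD144. It was thus not settled whether a library is a separate mouse, and p-values measure the spread between libraries, which may be technical.

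Integrins are receptors made of 1 alpha and 1 beta chain that hold cells to the matrix or to other cells. Laminins are trimers of an alpha, a beta and a gamma chain and form the sheet of the basement membrane on which endothelium and epithelium rest. Integrins with the Itgb2 or Itgb7 chain are made by leukocytes, which use them to stick to endothelium and leave the blood. Most other integrins bind collagen, laminin, or matrix proteins with the RGD motif, such as fibronectin.

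Total counts per library lay between 24464324 and 35184063. Counts are given below as CPM, counts scaled to a common library size after TMM adjustment. The TMM factor, by which a higher value lowers CPM, was 1.374 for WT replicate 1 and 0.8735 to 1.036 for the other libraries. Mitochondrial genes held 37.4% to 54.45% of the counts, most in WT replicate 3. The EC markers Pecam1 and Cdh5 were present in every library, at 178 CPM or more. Transcripts of other lung cells were present too. The summed level of 5 alveolar type II markers ran from 4934 to 46390 CPM in WT and from 36566 to 44951 CPM in KO, and WT replicate 2 held the highest of all. That of 5 airway epithelium markers ran from 14776 to 39180 CPM in WT and from 32595 to 55296 CPM in KO, highest in KO replicate 2. For 8 EC markers the sum ran from 1343 to 2567 CPM in WT and from 1658 to 2754 CPM in KO. WT replicate 1 stood lowest for 31 of the 36 tested members among the WT libraries, against 37.7% of all genes tested. WT replicate 2 stood highest for 26 of 36, against 38.4%, and WT replicate 3 for 9 of 36, against 31.7%.

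To compare levels between genes, CPM was divided by exon length in kilobases. On this scale Itgb1, the beta chain shared by most matrix receptors, was the most abundant member, at 114 ± 56.4 CPM per kilobase (SD, n = 3) in WT and 149 ± 6.67 in KO. It made up 78.9% of the summed level of the 8 beta chains. Next came Itgb2 with 11.4 ± 5.17 in WT and 19.6 ± 5.18 in KO, followed by Itgb5 with 7.27 ± 1.75 and 10.7 ± 1.32 CPM per kilobase. Itgb2 was above Itgb5 in each library, narrowly so in WT replicate 1 (5.45 against 5.33 CPM per kilobase).

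Among the alpha chains no single gene dominated. Itga3, which pairs with Itgb1 as a laminin receptor, was highest at 13.9 ± 6.94 CPM per kilobase in WT and 18.7 ± 2.73 in KO. Itga1, a collagen receptor, had 12.6 ± 5.44 and 16.7 ± 4.36, Itga6, a laminin receptor, 12.7 ± 4.71 and 11.2 ± 2.73, and Itga9, a receptor of tenascin and osteopontin, 10.01 ± 9.35 and 14.1 ± 1.71 CPM per kilobase. In WT the means of these 4 chains differed from one another by less than their SDs. In KO the mean of Itga6 lay below those of Itga3, Itga1 and Itga9 by more than their SDs. The KO means of Itga3 and Itga9 also lay further apart than their SDs. The 12 alpha chains that can pair with Itgb1 summed to 71.2 ± 31.9 CPM per kilobase in WT and 90.1 ± 9.61 in KO, below Itgb1 alone in every library.

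Of the laminins, Lamb2 and Lamb3 had the highest mean levels. Lamb2, a beta chain of basement membranes, had 14.2 ± 7.99 CPM per kilobase in WT and 21.4 ± 0.990 in KO. Lamb3, a chain of the epithelial laminin with Lama3, had 10.1 ± 10.5 and 19.3 ± 1.63. Its WT mean rested on WT replicate 2, and in WT replicates 1 and 3 Lamb3 (2.24 and 5.96 CPM per kilobase) lay below Lamc1 (4.12 and 8.08). Lama5, at 4.57 ± 1.25 in WT and 5.61 ± 0.684 in KO, was the highest alpha chain and Lamc1, at 8.36 ± 4.39 and 11.4 ± 1.41, the highest gamma chain. Lama1, the alpha chain of embryonic laminin, was lowest at 0.185 ± 0.155 and 0.191 ± 0.0759 CPM per kilobase.

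**Figure D1:**
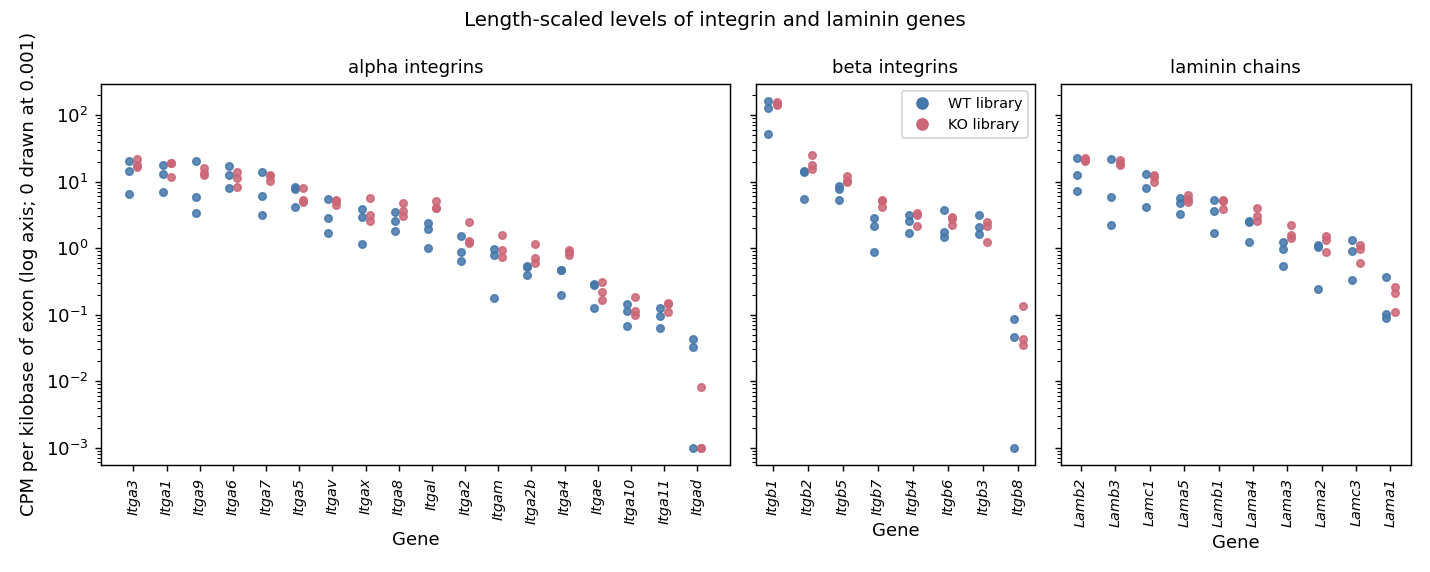
Levels of integrin and laminin genes in CPM per kilobase of exon (log axis), 1 point per library, WT in blue and KO in red, with genes ordered by their mean level within alpha integrins, beta integrins and laminin chains. Itgb1 lies above all other members, the WT points of Lamb3 and Itga9 spread over a wider range than the KO points, and libraries of Itgad and Itgb8 with a count of 0 are drawn at the bottom of the axis.

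The comparison of KO with WT asked which transcripts depend on leene in AngII-infused ECs. No member had an adjusted p under 0.05 by the quasi-likelihood test of edgeR, adjusted after Benjamini-Hochberg over 14625 genes, where 0.109% of all genes did (0.0342% higher and 0.0752% lower). At an unadjusted p under 0.05 there were 6 members, all higher in KO, of which 3 were leukocyte integrins (Itgal, Itga4 and Itgb7), 2 matrix-binding integrins (Itgb5 and Itga2b) and 1 a laminin (Lama3). Of all genes, 5.62% were higher at that threshold and 4.68% lower. DESeq2, the tool of the study's methods, called 2 members at an adjusted p under 0.05, Itgal and Itga4, where it called 1.21% of 15470 genes (0.569% higher and 0.64% lower).

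Itgal (ENSMUSG00000030830; chromosome 7, 127296260 to 127335138, plus strand, GRCm38) encodes the alpha chain of LFA-1, the receptor by which lymphocytes bind ICAM1 on endothelium. It had 6.63, 15.9 and 12.9 CPM in the WT libraries (replicates 1, 2 and 3, the order kept throughout), and the KO libraries had 33.4, 26.4 and 26.7 CPM. The lowest KO library thus stood well above the highest WT library. On the log2 scale KO exceeded WT by 1.29 (standard error, SE, 0.30), with an adjusted p = 0.265 in the edgeR test and 0.00948 in DESeq2.

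Itga4 (ENSMUSG00000027009; chromosome 2, 79255426 to 79333123, plus strand) encodes the alpha chain that pairs with Itgb1 to bind VCAM1 and fibronectin and with Itgb7 to bind MADCAM1. It had 2.72, 6.55 and 6.56 CPM in WT against 12.3, 11.2 and 13.2 CPM in KO. The groups did not overlap, and the KO libraries lay close together. The log2 fold change was 1.23 (SE 0.32, adjusted p = 0.303, edgeR, and 0.0398, DESeq2).

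Itgb7 (ENSMUSG00000001281; chromosome 15, 102215995 to 102231935, minus strand), the beta partner of Itga4 on gut-homing lymphocytes and of Itgae in epithelia, had 2.42, 7.84 and 5.90 CPM in WT. It had 14.7, 11.4 and 14.3 CPM in KO. Again each KO library was above each WT library. The log2 fold change was 1.33 (SE 0.38, adjusted p = 0.343, edgeR), and the adjusted p of DESeq2 was 0.0532.

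Both subunits of the Itga4 and Itgb7 pair were higher in KO. Their promoters are shown together with that of Itgam, a chain of macrophages and neutrophils whose groups overlapped. The sequences are the 250 bases before the RefSeq start site (GRCm38.p6), read in the direction of the gene, with capitals at the core motif of the myeloid and B cell factor PU.1 (GAGGAA) and at the RUNX motif (TGTGGT), searched on both strands.
Itga4 (chr2:79255176-79255425, plus strand): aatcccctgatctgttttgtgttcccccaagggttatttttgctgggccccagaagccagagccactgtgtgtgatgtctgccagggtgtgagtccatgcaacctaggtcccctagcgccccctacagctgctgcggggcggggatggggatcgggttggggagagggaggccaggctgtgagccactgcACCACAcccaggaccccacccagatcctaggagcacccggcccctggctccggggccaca
Itgb7 (chr15:102231936-102232185, minus strand): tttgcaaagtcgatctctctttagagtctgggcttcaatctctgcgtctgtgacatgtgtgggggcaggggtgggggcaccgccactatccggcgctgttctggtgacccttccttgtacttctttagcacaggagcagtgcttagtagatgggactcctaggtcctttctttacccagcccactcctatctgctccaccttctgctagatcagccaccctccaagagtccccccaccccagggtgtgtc
Itgam (chr7:128062390-128062639, plus strand): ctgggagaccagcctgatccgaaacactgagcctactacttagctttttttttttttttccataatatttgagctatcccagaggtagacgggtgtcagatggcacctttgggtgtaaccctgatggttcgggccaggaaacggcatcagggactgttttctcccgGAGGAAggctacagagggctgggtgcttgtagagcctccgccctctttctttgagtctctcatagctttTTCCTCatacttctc

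The Itga4 window held 1 RUNX motif, on the minus strand from 60 to 55 bases before the start, and no PU.1 core. The Itgam window held 2 PU.1 cores, at 84 to 79 bases on the plus strand and at 15 to 10 bases on the minus strand, and no RUNX motif. The Itgb7 window held neither. The window of Itgax, another myeloid integrin whose sequence is not printed, also held neither. Of 32851 RefSeq promoter windows of this length, 23.3% held the PU.1 core and 14% the RUNX motif. Of the 26 windows found for 23 members, 13 held the PU.1 core and 2 the RUNX motif. No window was found for Itgal or Itgb2. These are matches of letters only. No match overlapped another or a GC box (GGGCGG), of which the Itga4 and Itgam windows held 1 each.

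The leukocyte integrins of myeloid cells overlapped between the groups. Itgam, the alpha chain of Mac-1 (macrophages, neutrophils), had 0.906, 3.99 and 4.82 CPM in WT against 8.04, 3.72 and 4.76 CPM in KO. Itgax, or CD11c, a chain of alveolar macrophages and dendritic cells, had 5.58, 18.9 and 14.0 CPM in WT against 27.5, 12.2 and 15.2 CPM in KO. For both genes KO replicate 1 was highest and WT replicate 1 lowest, while the other libraries of the 2 groups overlapped. Their log2 fold changes were 0.78 (SE 0.57) and 0.52 (SE 0.46), with adjusted p-values of 0.635 and 0.689 from edgeR.

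Itgb2, the common beta chain of Itgal, Itgam and Itgax, lay between these patterns. It had 16.6, 45 and 42.9 CPM in WT against 77.4, 46.9 and 54.7 CPM in KO. The groups were separated by a narrow gap between WT replicate 2 and KO replicate 2, and the log2 fold change was 0.78 (SE 0.37, adjusted p = 0.509, edgeR). Itgae, which holds T cells and some dendritic cells to E-cadherin on epithelium, had 0.588 to 1.32 CPM in WT and 0.774 to 1.43 CPM in KO, so the log2 difference was 0.03. Itgad had 8, 5 and 0 counts in WT and 0, 1 and 0 counts in KO, too few for a comparison.

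**Figure D2:**
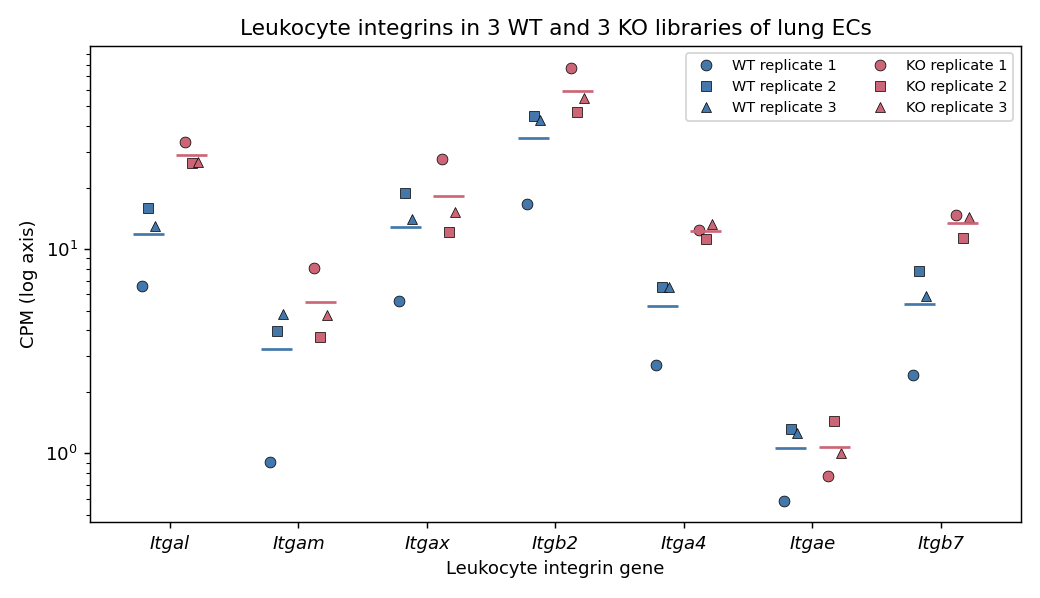
CPM (log axis) of the 7 tested leukocyte integrins in each library, WT in blue and KO in red, with the shape giving the replicate and the bar the mean of a group. For Itgal, Itga4 and Itgb7 the KO points stand clear of the WT points, whereas those of Itgam, Itgax and Itgae overlap.

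Over the 7 tested leukocyte integrins the median log2 fold change was 0.78, beside 0.45 for the 18 matrix-binding integrins, 0.45 for the 11 laminins and 0.03 for all genes tested. The median of the leukocyte integrins exceeded that of the 29 other members by 0.34. Without WT replicate 1 the 3 medians were 0.44, 0.16 and 0.11, and without WT replicate 2 they were 0.98, 0.67 and 0.86. All 3 medians were thus smaller without WT replicate 1, and the difference of the leukocyte integrins from the others was then 0.33. That difference was 0.15 without KO replicate 1 and 0.71 without WT replicate 3, so its size rested on single libraries. A larger number of cells of a type and more RNA per cell cannot be told apart in such bulk libraries.

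B cell and T cell markers were higher in KO, whereas alveolar macrophage and neutrophil markers went in both directions. All 5 B cell markers were higher in KO at an unadjusted p under 0.05, with Ms4a1 and Cd79a also passing an adjusted p under 0.05, and their sum ran from 6.63 to 15.8 CPM in WT and from 54.8 to 59.8 CPM in KO. All 5 T cell markers were higher in KO, 4 of them at an unadjusted p under 0.05, with a sum of 1.64 to 3.14 CPM in WT and 5.44 to 6.83 CPM in KO. Ptprc, the CD45 antigen of all leukocytes, had 7.76, 21.8 and 17.5 CPM in WT against 53.3, 40.4 and 47.3 CPM in KO, and was the 1 of 4 general leukocyte markers that was higher at that threshold. None of 5 alveolar macrophage markers (sum 128 to 294 CPM in WT, 139 to 345 CPM in KO) and none of 5 neutrophil markers (27.0 to 70.0 CPM and 35.9 to 39.6 CPM) had an unadjusted p under 0.05. Of these, 4 alveolar macrophage and 3 neutrophil markers had a log2 fold change below 0. Of 5 monocyte and interstitial macrophage markers 1 was higher at that threshold, Ccr2, and the sum ran from 27.4 to 58.3 CPM in WT and from 52.8 to 70.6 CPM in KO. Of 4 tested dendritic cell markers 2 were higher at that threshold, Ccr7 (log2 fold change 1.99, adjusted p = 0.0507, edgeR) and Xcr1 (1.49, adjusted p = 0.398). The list sum was 34.9 to 41.2 CPM in WT and 32.2 to 47.4 CPM in KO. Of 5 NK cell markers only Gzma was tested, and Eomes had 0 counts in WT replicate 2 and in KO replicates 2 and 3. The part of these cells in the values of Itgal, Itga4 and Itgb7 was not tested.

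The matrix-binding integrins were mostly higher in KO, with 15 of 18 log2 fold changes above 0, beside 54.1% of all genes tested. Itgb5 (ENSMUSG00000022817; chromosome 16, 33829665 to 33949153, plus strand), which pairs with Itgav to bind vitronectin, had 17.9, 29.3 and 26.1 CPM in WT against 41, 33.0 and 33.8 CPM in KO. Each KO library was above each WT library, by a small margin. The log2 fold change was 0.56 (SE 0.20, unadjusted p = 0.0241 and adjusted p = 0.429, edgeR).

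Itga2b (ENSMUSG00000034664; chromosome 11, 102453297 to 102470122, minus strand), the platelet chain that binds fibrinogen with Itgb3, had 2.91, 2.17 and 2.86 CPM in WT against 6.23, 3.90 and 3.24 CPM in KO. The groups did not overlap, with KO replicate 3 close to the WT libraries. Its log2 fold change was 0.75 (SE 0.30, unadjusted p = 0.0367 and adjusted p = 0.468, edgeR), and 0.41 without KO replicate 1. Itgb3, its partner, which ECs also use with Itgav, had 9.52, 18.8 and 12.3 CPM in WT and 14.7, 12.7 and 7.21 CPM in KO, and its groups overlapped. Of 5 platelet markers 3 (Ppbp, Pf4 and Gp9) were higher in KO at an unadjusted p under 0.05, with a sum of 26.1 to 40.2 CPM in WT and 35.9 to 71.3 CPM in KO. The part of platelets in the Itga2b value was not tested.

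Of the matrix-binding integrins 3 had a log2 fold change below 0, each smaller than its SE. Itga5, the fibronectin receptor with Itgb1, had 18.1, 37 and 33.7 CPM in WT against 35.3, 21.5 and 23.1 CPM in KO. Its log2 fold change was -0.15 (SE 0.30, adjusted p = 0.863, edgeR). Itga6 had 71.3, 115 and 156 CPM in WT against 126, 76.3 and 102 CPM in KO, so the log2 difference was -0.17 (SE 0.30, adjusted p = 0.843). Together with Itgb3 (-0.23, SE 0.33, adjusted p = 0.806), these were the lowest of all tested members, and the sign of each turned in at least 1 fit that left out a library.

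Itgb1 had 216, 668 and 517 CPM in WT against 611, 637 and 582 CPM in KO. The KO libraries lay close together, and the wide WT range left a log2 difference of 0.39 (SE 0.38, adjusted p = 0.718, edgeR). Itga3 had 37.5, 116 and 84 CPM in WT against 124, 94.6 and 101 CPM in KO, so the log2 difference was 0.43 (SE 0.36). Itgb6, an epithelial chain that pairs with Itgav to activate TGF-beta, had 10.6, 26.8 and 12.5 CPM in WT against 19.6, 21.2 and 15.8 CPM in KO, so the log2 difference was 0.18 (SE 0.34). For all 3 genes WT replicate 1 was lowest and the groups overlapped.

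Of the laminins, Lama3 on chromosome 18 was the chain with the clearest separation. This alpha chain of the epithelial laminin had 5.85, 13.1 and 10.3 CPM in WT against 16.7, 23.7 and 15.3 CPM in KO. All KO libraries were higher, and the log2 fold change was 0.93 (SE 0.31, unadjusted p = 0.0169 and adjusted p = 0.388, edgeR). Lamb3, which joins it in the same trimer, had 14.8, 146 and 39.4 CPM in WT against 117, 138 and 127 CPM in KO. WT replicate 2 was above every KO library there, and the log2 fold change of 0.93 had an SE of 0.69 (adjusted p = 0.639, edgeR).

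The other laminin chains had smaller log2 differences than Lama3 and Lamb3. Lama5 had 36.8, 65.0 and 54.1 CPM in WT against 72.1, 56.6 and 63.1 CPM in KO, so the log2 difference was 0.30 (SE 0.22). Lama4, the main alpha chain of endothelial basement membranes, had 14.9, 30.1 and 30.5 CPM in WT against 36.2, 30.6 and 48.9 CPM in KO. Its groups touched without overlap, and the log2 fold change was 0.62 (SE 0.30, adjusted p = 0.511, edgeR). Lamb2 had 43.6, 139 and 76.0 CPM in WT against 128, 125 and 137 CPM in KO, and Lamc1 had 34.1, 107 and 66.9 CPM in WT against 103, 80.9 and 98.6 CPM in KO. Both overlapped, with log2 fold changes of 0.59 (SE 0.37) and 0.44 (SE 0.36). Lamc3, a minor gamma chain, had 2.03 to 7.96 CPM in WT and 3.64 to 6.83 CPM in KO, so the log2 difference was 0.08.

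Each of the 11 laminins had a log2 fold change above 0, from 0.08 for Lamc3 to 0.93 for Lamb3, and 10 of the 11 were lowest in WT replicate 1 among the WT libraries. Over all members, 8 of 36 had every KO library above every WT library, beside 8.59% of all genes tested. These were Itgal, Itga4, Itgb7, Itgb2, Itgb5, Itga2b, Lama3 and Lama4. None had every KO library below, beside 9.2% of all genes.

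**Figure D3:**
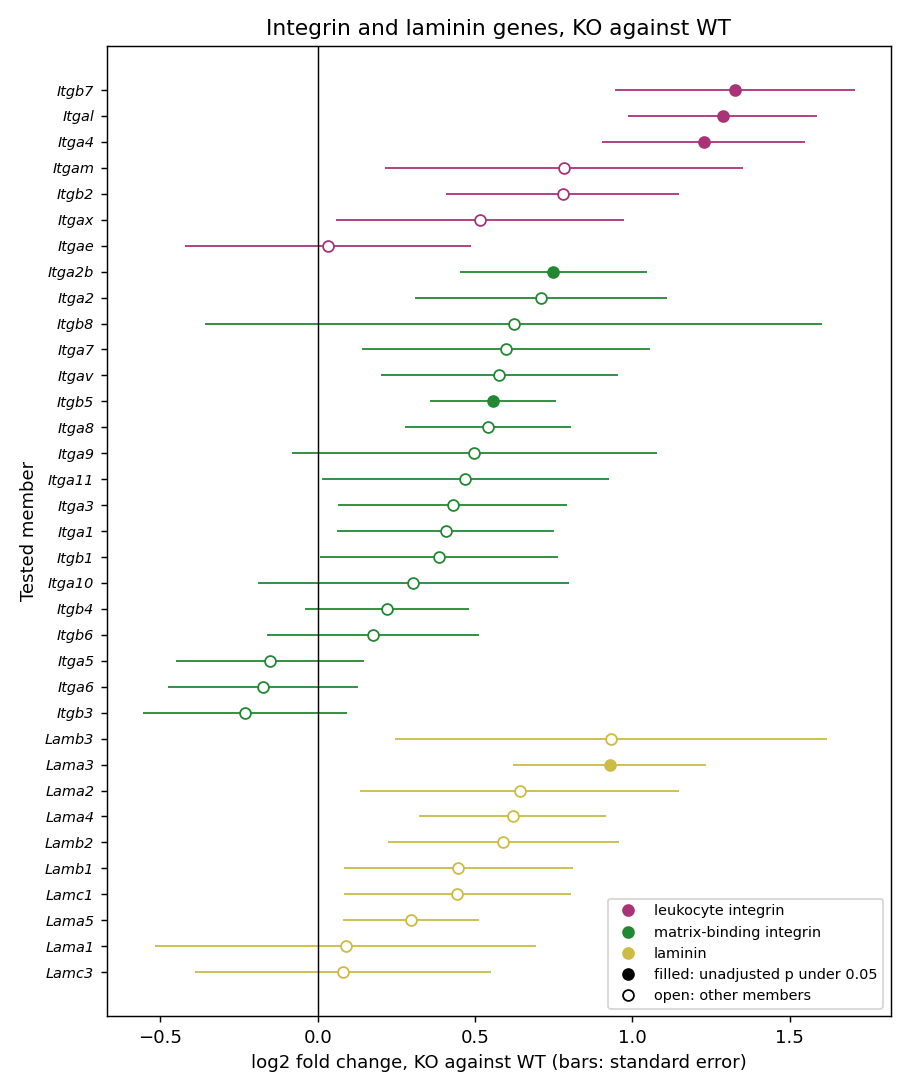
Log2 fold change of KO against WT with its standard error for tested members, by group, with filled points at an unadjusted p under 0.05 in edgeR's test. The 3 highest are Itgb7, Itgal and Itga4, and the only points left of 0 are Itga5, Itga6 and Itgb3.

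The members fell into different patterns over the WT libraries. Lamb3, Itga9, Itgb8, Itga7, Itgav, Lamb2 and Itgb6 were between 2.31 and 5.38 times higher in WT replicate 2 than in the mean of WT replicates 1 and 3. Itga9, for instance, had 26.3, 159 and 45.4 CPM in WT against 97.5, 123 and 106 CPM in KO, and Itga7 had 12.7, 55.3 and 24.7 CPM in WT against 48.9, 50.5 and 41.2 CPM in KO. Itgb8 rested on few reads, with 21, 33 and 0 counts in WT. The alveolar type II marker Sftpc was lowest in WT replicate 1 and highest in WT replicate 2, at 2051, 24029 and 7562 CPM in WT. Among Lamb3, Itga9, Itgb8, Itga7, Itgav, Lamb2 and Itgb6, only Itgb8 departed from this order, being lowest in WT replicate 3. Itga6 and Itga1, in contrast, were highest in WT replicate 3, where Cdh5 was also highest among the WT libraries (178, 365 and 578 CPM). Itga1 had 41.6, 78.2 and 107 CPM in WT against 115, 69.8 and 115 CPM in KO.

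The fits without WT replicate 2 differed from the fit of all libraries. Of the members, 7 then passed an adjusted p under 0.05 in edgeR's test (Itgal, Itgb7, Lamb3, Itga9, Itga7, Itgav and Lamb2), among 791 genes called over the whole table. The log2 fold change of Lamb3 was 2.21 without WT replicate 2 (adjusted p = 0.0282) and 0.45 without WT replicate 1. None of the 5 alveolar type II or the 5 airway epithelium markers had an unadjusted p under 0.05 with all libraries. The part of these cells in the laminin values was not tested. The SD of log2 CPM was larger in WT than in KO for 34 of 36 members, beside 65.6% of all genes tested.

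**Figure D4:**
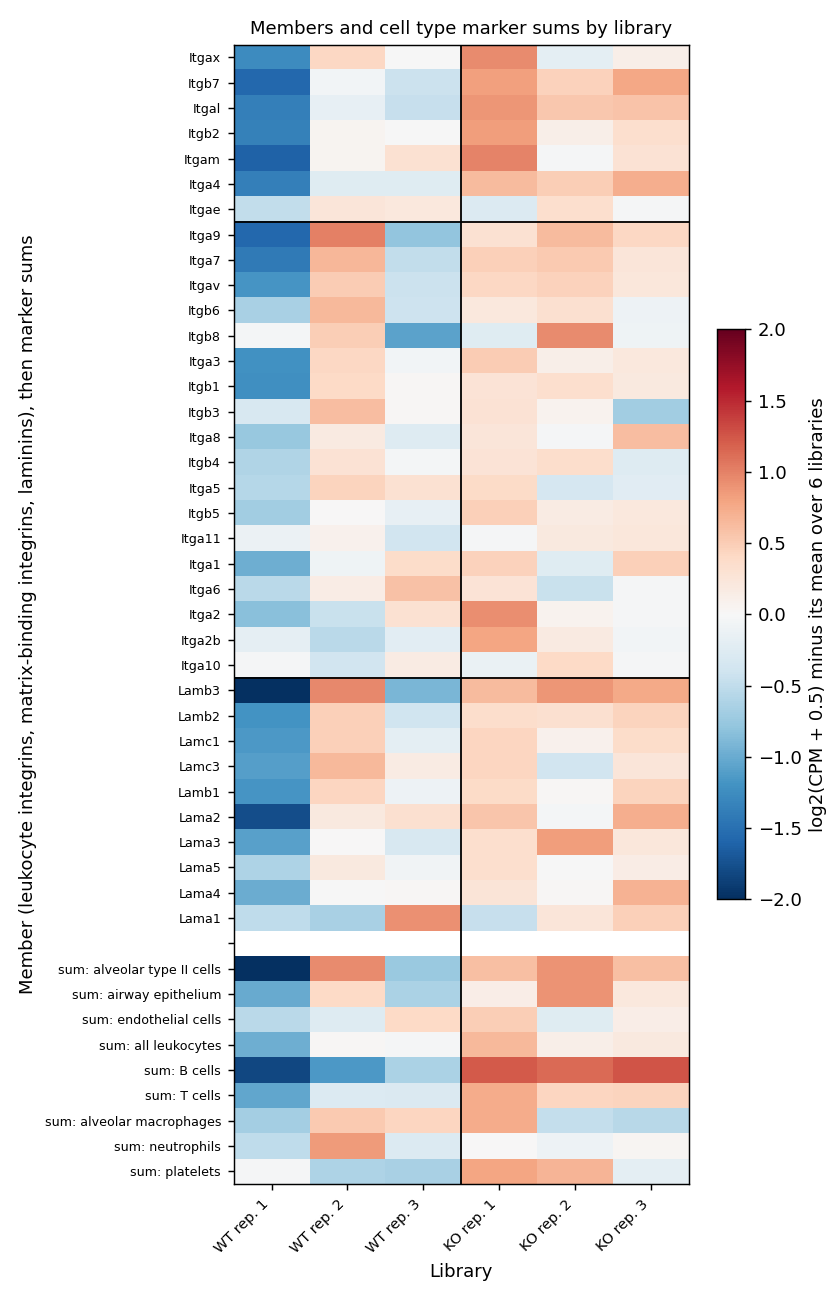
Each cell gives log2(CPM + 0.5) minus its mean over the 6 libraries, for tested members by group and, at the bottom, for the summed CPM of 9 marker lists. WT replicate 1 is low for most members and for the alveolar type II sum, WT replicate 2 is high for Lamb3 and Itga9, and the B cell sum is high in the 3 KO libraries.

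Genes that work with integrins were read from a list of 60 ligands, basement membrane partners, receptors and adaptors, of which 59 were tested. None was higher and 2 were lower in the KO libraries at an unadjusted p under 0.05 (beside 5.62% and 4.68% of all genes), both among the 25 adaptors, whose median log2 fold change was -0.07. Lims2, which encodes PINCH2 in the complex that ties integrin-linked kinase to actin, had 76.7, 75.7 and 74.5 CPM in WT against 52.3, 46.8 and 53.8 CPM in KO. Its WT libraries were nearly equal and all above the KO libraries. The log2 fold change was -0.57 (SE 0.12, adjusted p = 0.232 from edgeR, and 0.0154 from DESeq2). Tns1, or tensin 1, which links beta chains to actin, had 1134, 683 and 751 CPM in WT against 535, 477 and 644 CPM in KO, so the log2 difference was -0.63 (SE 0.26, unadjusted p = 0.0447 and adjusted p = 0.478, edgeR).

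The ligands of the leukocyte integrins overlapped between the groups, and which cells made their transcripts was not tested. Icam1, the ligand of Itgal with Itgb2, had 74.2, 403 and 188 CPM in WT against 280, 262 and 233 CPM in KO, so the log2 difference was 0.22 (SE 0.51). Vcam1, the ligand of Itga4 with Itgb1, had 21.5, 47.3 and 37.8 CPM in WT against 34.8, 31.1 and 28.9 CPM in KO, so the log2 difference was -0.17 (SE 0.27). Madcam1, the ligand of Itga4 with Itgb7, had 2 counts in KO replicate 3 and none in the other libraries, and was not tested.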

How the data were processed

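RNA-seq was performed on mouse lung ECs, with 3 WT and 3 KO libraries grouped by the labels. The authors made strand-specific polyA libraries, aligned reads with STAR 2.5.4b (from the submitters' processing notes) to mm10 and counted unique alignments over exons of each gene with featureCounts 2.0.0 (Ensembl release 84, reverse strand). The deposited values are raw counts per gene. The study's methods also name hg38 and TPM values for this step, which the file headers do not.

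Genes were tested for KO against WT with edgeR 4.0.16 in R 4.3.3 (TMM scaling, filter on low counts by filterByExpr, quasi-likelihood fit with legacy behaviour, genotype only), with p-values adjusted by Benjamini-Hochberg over 14625 genes. A prior count of 2 was used only for the log2 CPM from which libraries of the same replicate number were correlated. On simulated counts for these libraries (14625 genes, 200 of them changed by a log2 value of 1.5), the test recovered 156 changed genes with 5 false calls. The simulated WT and KO libraries shared the same spread, and 1.5 exceeds the largest log2 fold change of a member, 1.33. These figures thus do not tell how the test performs on the unequal spread or the smaller changes seen here. Alternatives were DESeq2 1.42.0, limma-voom (limma 3.58.1), other scalings, other filters, a replicate block and leaving out each library. A fit with the legacy behaviour turned off was chosen after seeing the data.

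The members and lists were chosen with earlier results of these data known. Values in every library were given for members at an unadjusted p under 0.05 or called by DESeq2, the 5 members with the highest and the 5 with the lowest log2 fold change among those with a mean log2 CPM above 1, and the highest gene per kilobase of each chain class. Pathway genes at an unadjusted p under 0.05 were also named. Itgam, Itgax, Itgb2, Itgae, Itgad, Itga1, Itga7, Itga9, Lama4, Icam1, Vcam1 and Madcam1 lay outside that rule or were added to complete a group, and were chosen after their values were seen. Among 34 of the 37 members no exon overlapped another gene on the same strand, and the exceptions were Itgad, Itgam and Itga10. No 2 libraries of a group agreed within sampling noise. Of 37 members, 23 matched a promoter in RefSeq. The transcripts of the deleted region were not analysed here, and 1 laminin and 1 B cell marker enter the counts, medians and sums but are not reported singly or plotted.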

Additional observations from a re-analysis of the deposited data

How the results depend on the processing

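Of 255 refits of the 17 members named by rule, 236 kept the direction and the side of the adjusted threshold, 12 passed it anew and 7 changed sign. Members called numbered 0 with edgeR (6 at an unadjusted p under 0.05), 2 with DESeq2, 3 with total counts as the library size, 3 without the filter on low counts and 0 to 7 when each library was left out, with 7 without WT replicate 2. Members at an unadjusted p under 0.05 numbered 13 of 37 without the filter, beside 2293 of 26138 genes. They numbered 4 to 19 without 1 library, with 19 of 36 without WT replicate 2, beside 3188 of 14950 genes. Genes called over the whole table numbered 16 of 14625 (5 higher, 11 lower) and 187 of 15470 with DESeq2 (88 higher, 99 lower). They numbered 26 with limma-voom, 26 with RLE size factors and 123 of 14625 with total counts (61 higher, 62 lower). Without the filter 152 of 26138 were called (87 higher, 65 lower), and 0 to 791 without 1 library. They were 791 of 14950 without WT replicate 2 (660 higher, 131 lower). The number was 0 when any 1 KO library was left out of edgeR's test, where 986 to 1112 had an unadjusted p under 0.05. Total counts moved the median of all genes from 0.03 to -0.13. The leukocyte median exceeded that of the other members by 0.60 with limma-voom and by 0.15 to 0.71 without 1 library (0.71 without WT replicate 3). Leaving out 1 library, the log2 fold change ran from -0.42 to 0.011 for Itga5 and from -0.46 to 0.049 for Itgb3 (both turned without WT replicate 2, and Itgb3, at 0.02, without KO replicate 3), from -0.43 to 0.10 for Itga6 (turned without WT replicate 3), from -0.076 to 0.67 for Itgb6 (turned without WT replicate 1) and from -0.32 to 0.52 for Lamc3 (turned without WT replicate 1 and, at -0.12, without KO replicate 1). The cause of these shifts was not tested.

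Libraries with the same replicate number had deviations correlated at -0.0814, 0.219 and 0.0111, so the numbers were not shown to pair them. With a replicate block edgeR called 0 genes (1776 at an unadjusted p under 0.05) and 0 members (8 at that threshold). Depth limits Itgad and Itgb8, which held libraries with 0 counts.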

Other observations

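The level of the leukocyte integrins relative to all leukocytes depended on the general leukocyte marker they were set against. Per 100 counts of Ptprc, Itgal had 85.5, 73.0 and 73.8 counts in WT against 62.7, 65.3 and 56.4 in KO, and Itgal, Itga4, Itgb7 and Itgb2 were each lower in every KO library than in every WT library. Per 100 counts of Cd53, Itgal had 123, 93.0 and 85.2 counts in WT against 144, 139 and 140.2 in KO. Itgal, Itga4 and Itgb7 were each higher in every KO library when set against Cd53, Coro1a or Laptm5. Itgb2 was higher in every KO library against Laptm5, and its groups overlapped against Cd53 and Coro1a. These 3 other markers were added after seeing the data. Ptprc had the highest log2 fold change of the 4 markers, 1.58, beside 0.70 for Cd53, 0.23 for Coro1a and 0.19 for Laptm5.

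Set against Itgb2, its beta chain, Itgal had 39.9, 35.5 and 30.1 counts per 100 in WT and 43.2, 56.2 and 48.8 in KO. Itga6 had 40.1, 31.6 and 27.0 counts per 100 counts of the EC gene Cdh5 in WT and 16.7, 22.4 and 20.4 in KO. Cdh5 itself had a log2 fold change of 0.51, beside a median of 0.19 over 8 EC markers. No other EC gene was used as a reference, so a change of Itga6 per EC was not tested. Per 100 counts of the alveolar type II gene Sftpc, Itga9 had 1.28, 0.663 and 0.601 counts in WT against 0.492, 0.517 and 0.532 in KO. Lamb3 had 0.721, 0.607 and 0.521 in WT and 0.590, 0.581 and 0.638 in KO (exact permutation p = 0.8, adjusted p = 0.835), and Lama3 had 0.285, 0.0546 and 0.137 in WT and 0.0842, 0.0992 and 0.0774 in KO (exact permutation p = 0.4, adjusted p = 0.48). The groups also overlapped for Itgax per Itgb2, Itga1 per Cdh5 and Itga2b per Pf4. Every ratio named here without overlap had p = 0.1 in a two-sided exact permutation test, the smallest that 3 against 3 libraries allow (0.141 after Benjamini-Hochberg adjustment over 24 ratios).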
